A study of Mus musculus with 3 samples.

Results

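The guanylate-binding proteins (GBPs) and immunity-related GTPases (IRGs) were followed as 10 named genes of the 27998 genes counted: the GBPs Gbp2, Gbp3, Gbp4, Gbp5 and Gbp7, and the IRGs Irgm1, Irgm2, Igtp, Iigp1 and Ifi47. They were chosen by name, not by a rule on their values, but with earlier results of these data known. All 10 were found in each of the 3 libraries. Mouse Peyer's patches, the lymphoid follicles of the small intestine, were enriched for CD11c-bearing cells on beads, and live conventional dendritic cells (cDC1 and cDC2), LysoDC and macrophages were sorted for droplet 3′ single-cell RNA sequencing. Each library pooled 12 female C57BL/6Rj mice, with 88 patches for Control, 85 for CpG and 90 for R848. Control mice are labelled as untreated, with no vehicle injection named. The CpG group was injected intraperitoneally with 125 µg of CpG, which stimulates TLR9, and the R848 group with 10 µg of R848, which stimulates TLR7, for 9 h. With 1 pooled library per group a difference has no replicate check and no test was run. Differences below are between libraries, and the 95% intervals take in only the error of counting.

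GBPs and IRGs are large, interferon-inducible GTPases that defend cells against bacteria and parasites living inside vacuoles. GBPs gather on vacuoles or on bacteria, open them and help to start inflammasome signalling. Among the IRGs, Irgm1, Irgm2 and Igtp (also called Irgm3) sit on the cell's own membranes and hold the effector IRGs, such as Iigp1 and Ifi47, off them. Type I interferon acts on genes through the interferon-stimulated response element (ISRE) and interferon-gamma through the gamma-activated site (GAS), and both are known routes to these families.

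Gbp5, Gbp7, Gbp3 and Gbp2 lie in this order on the plus strand of mouse chromosome 3 (GRCm38, the assembly called mm10), between 142493978 and 142638008. Gbp4 lies on the minus strand of chromosome 5 (105115767 to 105139586). Irgm1 (48861968 to 48871683, minus strand), Ifi47 (49076587 to 49096974, plus strand) and the neighbours Igtp (58199556 to 58207591) and Irgm2 (58199618 to 58222782, both plus strand) are on chromosome 11. All 10 are annotated as protein-coding genes. Exons of Igtp and Irgm2 overlap on the same strand, as do those of Gbp4 with Gbp8 and Gbp9, and those of Ifi47 with the olfactory receptor gene Olfr56. Of the 50-base stretches in the last 400 bases of the transcripts, 16.9% of those of Gbp4 also occur in another counted gene (Gbp6, Gbp8, Gbp9 or Gbp10), 5.81% of those of Ifi47, 5.07% of those of Irgm1, 4.30% of those of Gbp3 (in Gbp7) and 2.11% of those of Gbp5. For the other 5 genes it was 0. The handling of reads from shared stretches was not tested, so counts of Gbp4 and, to a smaller extent, Ifi47, Irgm1, Gbp3 and Gbp5 are uncertain. Igtp and Irgm2 share exon positions but no stretch in their last 400 bases, and how reads in their overlap were counted was not tested.

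Promoter windows of 300 bases, 250 before to 50 after the RefSeq start (GRCm38.p6), were examined for 8 of the 10 genes. No window of Gbp4 or Iigp1 was examined, so the counts below do not cover them. The ISRE letters (GAAA, any 2 bases, GAAA), searched on both strands, were found in 7 of 9 windows of these 8 genes and in all 8 genes except Ifi47, against 3.44% of all 32851 promoter windows. The GAS letters (TTC, any 3 bases, GAA) were found in 4 windows, those of Gbp5, Gbp7, Igtp and Irgm2, against 8.30% of all windows. The same 4 windows hold both sets of letters, which 0.454% of all windows do. Of 12 windows of type I interferon reference genes, 8 hold the ISRE letters, 2 the GAS letters and 1 both. A match of letters is a description and not a measured binding site. The stretches before the start are printed 5′ to 3′ on the gene's strand for the members with ISRE letters, except Gbp3. The ISRE and GAS letters are in capitals, and the stretches are Gbp2 (chr3:142620543-142620662, plus strand), Gbp5 (chr3:142496734-142496933, plus), Gbp7 (chr3:142530216-142530335, plus), Irgm1 (chr11:48871421-48871540, minus), Igtp (chr11:58199436-58199555, plus) and Irgm2 (chr11:58214857-58214976, plus).
Gbp2: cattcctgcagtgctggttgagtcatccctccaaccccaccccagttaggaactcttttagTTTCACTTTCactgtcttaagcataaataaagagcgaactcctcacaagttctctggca
Gbp5: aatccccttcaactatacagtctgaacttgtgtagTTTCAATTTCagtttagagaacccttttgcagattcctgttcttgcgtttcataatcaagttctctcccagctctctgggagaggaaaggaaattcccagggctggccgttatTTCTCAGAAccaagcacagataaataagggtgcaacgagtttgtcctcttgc
Gbp7: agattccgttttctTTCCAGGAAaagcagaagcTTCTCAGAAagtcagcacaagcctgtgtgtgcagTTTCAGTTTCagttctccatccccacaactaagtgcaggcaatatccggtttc
Irgm1: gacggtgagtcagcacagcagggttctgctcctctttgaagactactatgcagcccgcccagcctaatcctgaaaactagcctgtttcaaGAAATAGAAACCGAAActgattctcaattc
Igtp: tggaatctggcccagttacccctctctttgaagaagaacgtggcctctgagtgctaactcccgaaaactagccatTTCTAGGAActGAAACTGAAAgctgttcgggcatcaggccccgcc
Irgm2: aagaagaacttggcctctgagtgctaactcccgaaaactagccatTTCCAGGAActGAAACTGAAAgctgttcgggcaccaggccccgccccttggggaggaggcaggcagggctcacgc

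The windows of Igtp and Irgm2 are alike in part. At their best ungapped placement, shifted by 30 bases, 184 of 270 aligned bases are identical (68.1%), and the longest identical run is 61 bases. In Igtp the GAS and ISRE letters stand at -45 to -37 and -34 to -25, counted from the start, and in Irgm2 at -75 to -67 and -64 to -55. Gbp7 carries GAS letters at -106 to -98 and -87 to -79 and ISRE letters at -53 to -44. Gbp5 carries ISRE letters at -165 to -156 and GAS letters at -52 to -44 and, beyond the stretch printed, at -245 to -237. The neighbours Gbp5 and Gbp7 both hold both sets of letters, at different places. Mature dendritic cells had the highest Gbp5 and the lowest Gbp7 of the main cell types described below. Any link between the letters and these levels was not tested.

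**Figure D1:**
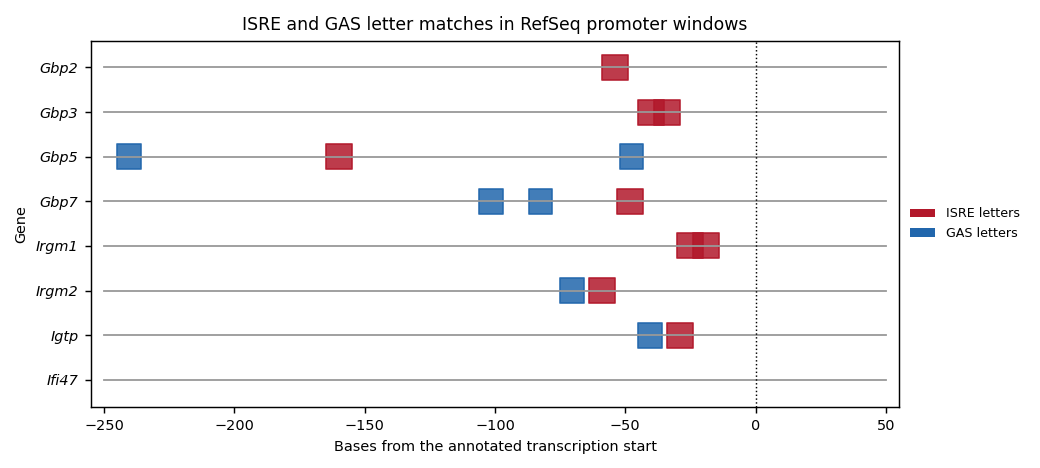
Places of the ISRE letters (red) and GAS letters (blue) in the RefSeq promoter windows of 8 members, in bases from the annotated start (dotted line). The 4 genes with both sets are Gbp5, Gbp7, Igtp and Irgm2, and Ifi47 has neither.

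Cells were assigned to types from marker genes, cell by cell. The 4 main types were lysozyme-high Cd4-negative cells (LysoDC-like, though a macrophage in which no Cd4 UMI was caught also falls here), lysozyme-high Cd4-positive cells (macrophage-like), resting cDC2 and mature dendritic cells (DC), chosen on a panel that includes the homing receptor gene Ccr7. The macrophage marker Timd4 stood at 9.69, 5.88 and 2.59 CPM in the Cd4-negative cells of Control, CpG and R848 and at 83.8, 87.3 and 47.0 CPM in the Cd4-positive cells. In the order named, the types held 1589, 546, 1730 and 456 Control cells, 883, 394, 496 and 2867 CpG cells, and 1282, 612, 415 and 2300 R848 cells. Resting cDC1 numbered 430 in Control but 21 with CpG and 3 with R848, so they were described in Control only. The limits were set after the marker distributions were seen, and 390, 102 and 229 cells of Control, CpG and R848 lay within 1.5-fold of the lysozyme limit and 252, 167 and 216 within 1.5-fold of the limit for mature cells. Levels are CPM, the UMIs (molecules counted) of a gene scaled to the same total of UMIs in each type and library. Median depth ran from 5033 UMIs per cell in Control mature DC to 13482 in CpG lysozyme-high Cd4-negative cells. Over the 4 main types, the 6 T and NK cell markers summed to 0.369 to 3.44 CPM and the 5 neutrophil markers to 0.393 to 7.78 CPM. The 6 plasmacytoid DC markers summed to 48.3 to 229 CPM and the 7 B cell markers to 20.9 to 216 CPM. The 5 stromal markers moved with treatment in all 4: from 32.6 CPM in Control to 110 with CpG and 97.4 with R848 in lysozyme-high Cd4-negative cells, from 40.4 to 126 and 105 in Cd4-positive cells, from 37.3 to 62.6 and 51.4 in resting cDC2, and from 15.6 to 36.9 and 24.4 in mature DC. The part of these cells in the results was not tested. Between libraries, 33 to 42 cell barcodes were shared.

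In both treated libraries GBP and IRG transcripts were more abundant than in Control in every main type, but the 2 families differed in where. The 5 GBPs summed to 239 CPM in Control lysozyme-high Cd4-negative cells, 427 with CpG and 404 with R848, so 1.79 times (95% interval 1.71 to 1.86) and 1.69 times (1.62 to 1.76) the Control level. In mature DC the same sum went from 125 CPM in Control to 1043 with CpG and 641 with R848, which is 8.34 times (7.47 to 9.35) and 5.13 times (4.58 to 5.75). Resting cDC2 had lower levels than both, at 76.7, 362 and 228 CPM, with ratios of 4.71 (4.34 to 5.12) and 2.98 (2.70 to 3.29), and Cd4-positive cells stood at 297, 520 and 618 CPM. Control levels were thus higher in both lysozyme-high types than in cDC2 or mature DC, while the highest treated level was that of CpG mature DC.

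The IRG sum was more alike between types. It stood at 42.9, 241 and 182 CPM (Control, CpG, R848) in lysozyme-high Cd4-negative cells and at 62.4, 312 and 274 CPM in Cd4-positive cells. In resting cDC2 it was 34.2, 195 and 129 CPM, and in mature DC 25.8, 200 and 110 CPM. Over the 4 types these are ratios to Control of 5.001 to 7.76 for CpG and 3.76 to 4.40 for R848, where the GBP ratios spanned 1.75 to 8.34 and 1.69 to 5.13.

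**Figure D2:**
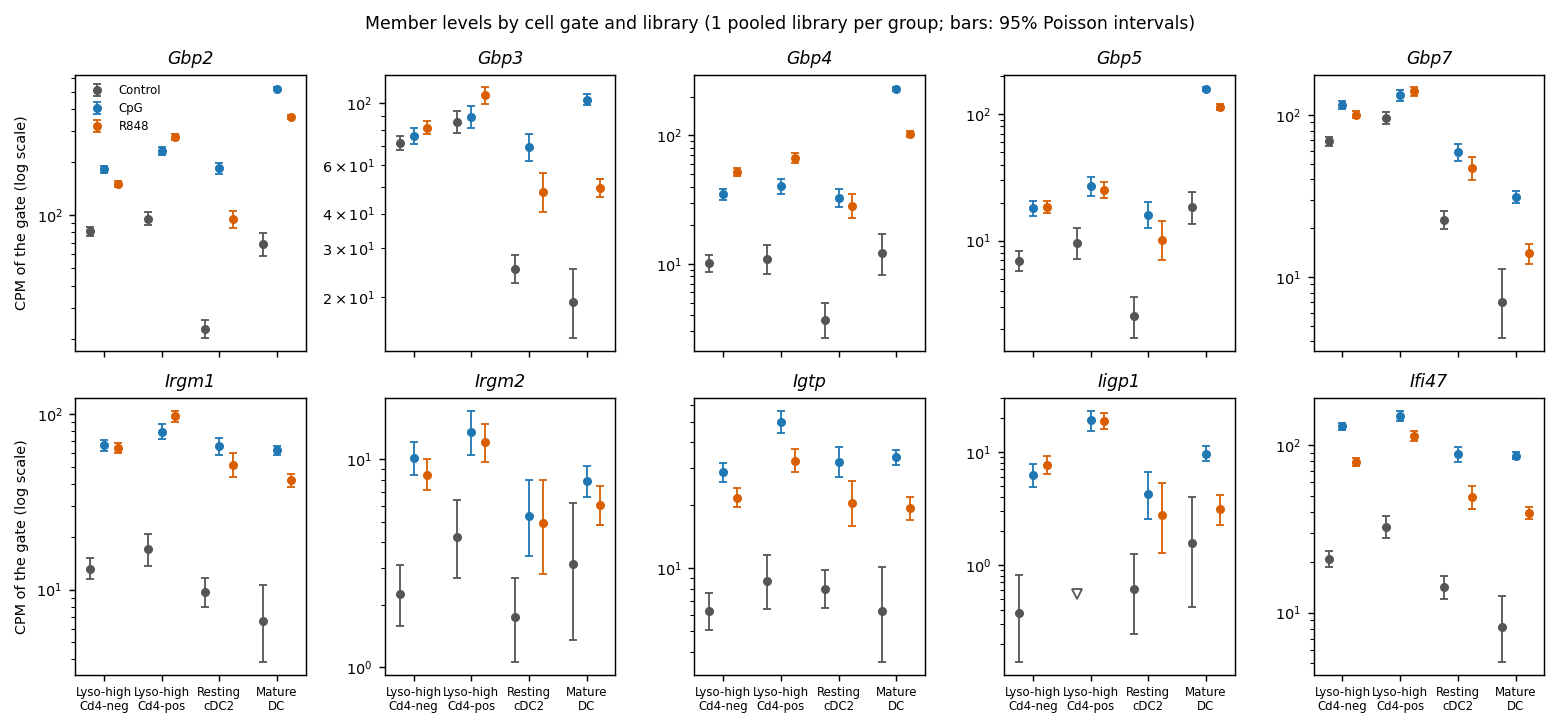
Levels of the 10 members (CPM, log scale, each panel with its own range) in the 4 main cell types of the Control (grey), CpG (blue) and R848 (orange) libraries. Points are sums over cells of 1 pooled library, bars are 95% Poisson intervals, and the open triangle marks the level of 3 counts where 0 UMIs were found. Gbp2, Gbp4 and Gbp5 are highest in CpG mature DC. In the lysozyme-high types Gbp3 differs little between libraries, and Gbp7 is higher in both treated libraries than in Control but by less than 2-fold.

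A gene was taken as measured where it reached 20 CPM in 1 of the 2 libraries compared, and as higher or lower where the levels, with 5 CPM added to both, differed at least 2-fold. In lysozyme-high Cd4-negative cells, 5 of 7 measured members were higher with CpG than in Control (Gbp2, Gbp4, Irgm1, Igtp and Ifi47), where 2.96% of all 4661 genes measured were. With R848, 4 of 7 were higher (the same without Gbp2), against 4.11% of 4820 genes. In Cd4-positive cells 6 of 8 measured members were higher with CpG, against 3.69% of genes, and 6 of 8 with R848, against 5.49%. Gbp3 and Gbp7 were the measured members that missed the call in both types and with both agonists.

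In resting cDC2 all 7 measured members were higher with CpG, against 3.38% of genes, and 4 of 7 with R848 (Gbp2, Gbp4, Irgm1 and Ifi47), against 2.02%. In mature DC all 8 measured were higher with CpG, against 9.06%, and all 6 measured with R848, against 6.07%. Igtp, at 19.4 CPM, and Gbp7, at 14.0 CPM, fell short of the minimum in that last comparison. A low-level gene is measured here only if a treated library lifts it past 20 CPM, so these counts are read beside the medians over all 10 members. Those median log2 ratios for CpG were 1.09 in lysozyme-high Cd4-negative cells, 1.37 in Cd4-positive cells, 1.4997 in cDC2 and 2.35 in mature DC, and for R848 1.11, 1.48, 0.996 and 1.46. Over all genes measured the medians lay between -0.03 and 0.18 in these comparisons. The cells called resting cDC2 also differed between libraries in their markers: the cDC2 subset gene Cd209a went from 147 CPM in Control to 1.33 with CpG and 32.9 with R848. The maturation genes Ccr7 and Fscn1 went from 43.5 to 139 and 54.2 CPM and from 36.1 to 109 and 47.7 CPM. Their part in the cDC2 results was not tested. The value of 0.18 was in cDC2, where median-of-ratios scaling moved Control by 0.13 and the treated libraries by -0.06 and -0.07 on the log2 scale. Both figures are drawn from the same gene ratios, and the cause of this shift was not tested. No measured member was lower than in Control in any type. Of all genes, 0.665% and 1.62% were lower with CpG and R848 in lysozyme-high Cd4-negative cells, 0.68% and 2.11% in Cd4-positive cells, 0.824% and 0.585% in cDC2, and 6.97% and 6.92% in mature DC.

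**Figure D3:**
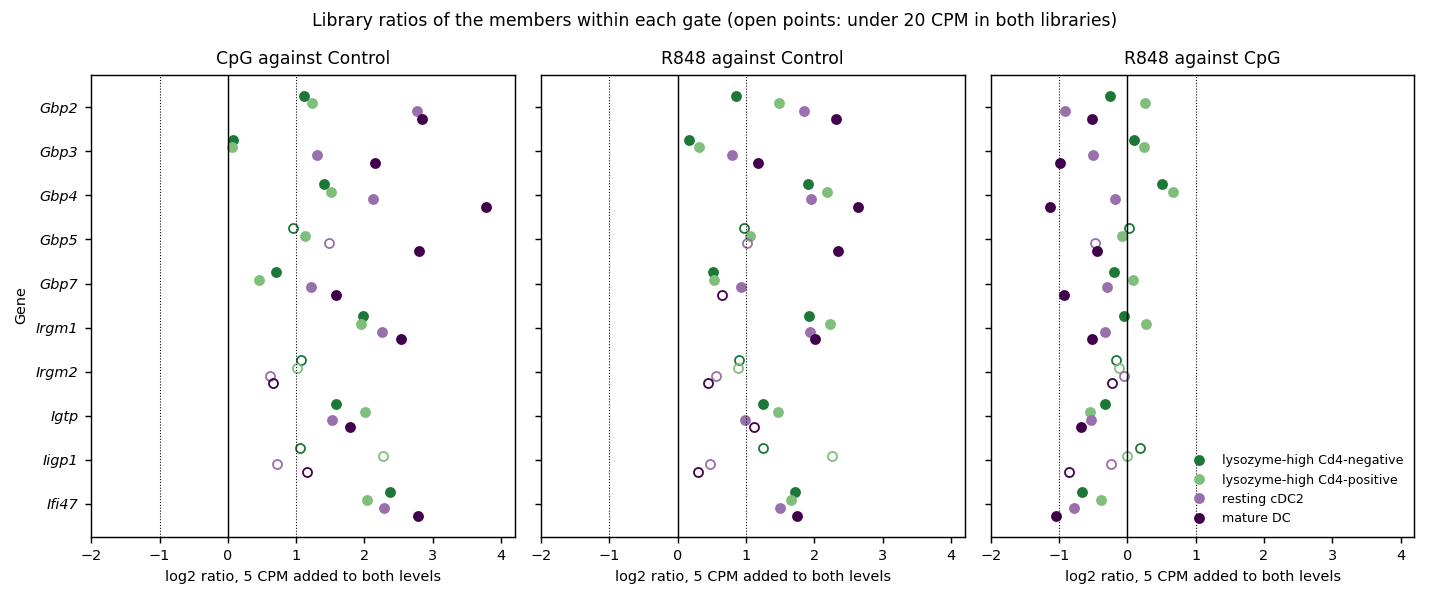
Log2 ratios between libraries, with 5 CPM added to both levels, for each member in the 4 main types. Left, CpG against Control. Middle, R848 against Control. Right, R848 against CpG. Open points were under 20 CPM in both libraries and dotted lines mark a 2-fold difference. With CpG, Gbp3 lies near 0 in both lysozyme-high types and at 2.16 in mature DC. With R848 it lies at 0.17 in Cd4-negative and 0.31 in Cd4-positive lysozyme-high cells.

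Gbp2, a lipid-anchored GBP that coats vacuoles and bacteria, was the most abundant GBP in all treated types. It stood at 81.1 CPM in Control, 182 with CpG and 151 with R848 in lysozyme-high Cd4-negative cells, and at 95.8, 231 and 278 CPM in Cd4-positive cells. Resting cDC2 had 22.8, 184 and 95.2 CPM, and mature DC 68.4, 521 and 362 CPM. The ratio to Control was smallest in Cd4-negative cells, at 2.25 (2.10 to 2.41) for CpG and 1.86 (1.74 to 1.996) for R848. It was 8.10 (7.04 to 9.34) and 4.18 (3.53 to 4.95) in cDC2, and 7.62 (6.56 to 8.89) and 5.29 (4.55 to 6.18) in mature DC.

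Gbp4 showed the largest ratio to Control of any GBP over the 4 main types. Its level went from 12.1 CPM in Control mature DC to 231 with CpG and 102 with R848, ratios of 19.0 (13.4 to 28.0) and 8.41 (5.90 to 12.4). Lysozyme-high Cd4-negative cells had 10.1, 34.9 and 51.8 CPM, Cd4-positive cells 10.9, 40.3 and 67.0 CPM, and cDC2 3.65, 32.7 and 28.3 CPM. R848 thus gave the higher level in both lysozyme-high types and CpG in mature DC. Because Gbp4 overlaps Gbp8 and Gbp9, their values are set beside it. Gbp9 went from 12.5 to 66.8 (CpG) and 47.1 CPM (R848) in mature DC and from 14.2 to 27.2 and 40.5 CPM in Cd4-negative cells, and Gbp8 from 33.2 to 70.2 and 69.6 CPM and from 74.7 to 99.0 and 102 CPM.

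Gbp5, which promotes inflammasome assembly, stood apart by type. Mature DC held 18.4 CPM in Control, 158 with CpG and 114 with R848, ratios of 8.59 (6.44 to 11.7) and 6.21 (4.65 to 8.49). Lysozyme-high Cd4-negative cells held 6.94, 18.1 and 18.5 CPM, Cd4-positive cells 9.60, 26.9 and 25.3 CPM, and cDC2 2.52, 16.0 and 10.2 CPM. All 3 mature DC levels lay above those of the other types in the same library, with intervals that did not overlap.

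Gbp7, a GBP tied to the phagocyte oxidase, ranked the other 3 main types as Gbp5 did but was lowest, not highest, in mature DC. Lysozyme-high Cd4-positive cells held 95.8 CPM in Control, 133 with CpG and 140 with R848, and Cd4-negative cells 68.8, 116 and 100.7 CPM. Resting cDC2 held 22.5, 59.1 and 47.1 CPM and mature DC 7.04, 31.2 and 14.0 CPM. The level was lowest in mature DC in all 3 libraries, although the CpG ratio there was the largest of the 4 types, at 4.43 (2.78 to 7.53). In the lysozyme-high types the ratios to Control ran from 1.39 (1.23 to 1.56) to 1.68 (1.55 to 1.82).

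Gbp3 differed least between libraries in the lysozyme-high types: 72.0, 76.0 and 81.6 CPM in Cd4-negative cells and 85.4, 89.2 and 107 CPM in Cd4-positive cells. The CpG ratios there were 1.06 (0.967 to 1.15) and 1.04 (0.915 to 1.19), intervals that include 1. With R848 the levels were somewhat above Control, at log2 ratios, with 5 CPM added, of 0.17 and 0.31. Under the processing alternatives these ran from 0.02 to 0.22 and from 0.19 to 0.41. Outside these types Gbp3 went from 25.3 to 69.5 and 47.7 CPM in cDC2 and from 19.2 to 102.98 and 49.4 CPM in mature DC. The CpG ratios were 2.75 (2.34 to 3.24) and 5.38 (4.05 to 7.29). With CpG, cDC2 thus came near the 72.0 CPM of Control lysozyme-high Cd4-negative cells and mature DC stood above it.

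The make-up of the GBP UMIs followed. UMIs count molecules at the 3′ end and are not divided by gene length, so shares of molecules can be set side by side, within the limits of shared sequence given above. In Control lysozyme-high Cd4-negative cells, Gbp2, Gbp3 and Gbp7 made up 33.9%, 30.1% and 28.8% of the GBP UMIs, and Gbp4 and Gbp5 4.24% and 2.90%. In CpG mature DC, Gbp2, Gbp4 and Gbp5 made up 49.9%, 22.1% and 15.1%, and Gbp3 and Gbp7 9.87% and 2.99%. Control mature DC already had more Gbp5 (14.7%) and less Gbp7 (5.62%) than any other main type.

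Among the regulatory IRGs, Irgm1, needed for the stability of host membranes and for resistance to mycobacteria, was several times higher in every treated type than in its Control. It stood at 13.2, 66.4 and 64.2 CPM in lysozyme-high Cd4-negative cells and at 17.0, 79.6 and 97.6 CPM in Cd4-positive cells. In cDC2 it was 9.73, 65.5 and 51.4 CPM and in mature DC 6.64, 62.4 and 42.0 CPM. The CpG levels of Cd4-negative cells, cDC2 and mature DC differed by less than their counting intervals. Ratios to Control ran from 4.69 (3.73 to 5.95) to 9.39 (5.84 to 16.2) for CpG.

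Igtp was higher with CpG than with R848 in all 4 main types, at 28.7 against 21.8 CPM, 50.1 against 32.7 CPM, 32.2 against 20.6 CPM and 33.9 against 19.4 CPM, in the order of types above. Its Control levels were 6.25, 8.67, 7.99 and 6.25 CPM. Irgm2, whose promoter window resembles that of Igtp in part, stayed under 20 CPM in all main types and so was not measured by the rule. It stood at 2.25, 10.2 and 8.46 CPM in Cd4-negative cells and 4.24, 13.6 and 12.1 CPM in Cd4-positive cells. Resting cDC2 had 1.74, 5.33 and 4.93 CPM. In mature DC it stood at 3.13, 7.86 and 6.04 CPM, where the interval of the R848 ratio, 1.93 (0.937 to 4.62), includes 1.

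Of the effector IRGs, Ifi47 was the most abundant IRG in lysozyme-high cells with either agonist. Levels were 20.9, 130 and 79.8 CPM in Cd4-negative cells, 32.5, 150 and 113 CPM in Cd4-positive cells, 14.2, 88.2 and 49.0 CPM in cDC2 and 8.21, 86.4 and 39.4 CPM in mature DC. The CpG level was above the R848 level in all 4 types. The R848 to CpG ratio was 0.615 (0.571 to 0.663), 0.756 (0.685 to 0.835), 0.555 (0.459 to 0.669) and 0.456 (0.413 to 0.503) in that order.

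Iigp1, which binds and breaks up parasite vacuoles, was the lowest member in all 4 main types of Control. It had 0 UMIs in Control lysozyme-high Cd4-positive cells, where 3 counts would be 0.554 CPM, and 19.1 CPM with CpG and 18.9 CPM with R848. Against that floor, taken per library, the treated levels were at least 34.4-fold and at least 34.1-fold higher. In Cd4-negative cells 6 Control UMIs gave 0.375 CPM, and the levels of 6.22 CPM with CpG and 7.72 CPM with R848 were 16.6 times (7.26 to 46.6) and 20.6 times (9.19 to 57.2) as high. In cDC2 Iigp1 stood at 0.608, 4.22 and 2.77 CPM and in mature DC at 1.56, 9.65 and 3.09 CPM. All these levels are under 20 CPM, so Iigp1 enters none of the counts of measured members.

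The direct comparison of the agonists asked which members differed between R848 and CpG. No measured member was at least 2-fold higher with R848 in any main type, where 1.34%, 1.86%, 0.237% and 1.13% of genes were, in the order of types above. None was lower in the first 3 types either, where 0.545%, 0.546% and 0.948% of genes were. In mature DC, Gbp4 and Ifi47, 2 of 8 measured members, were lower with R848, against 3.29% of genes. That count was 1 to 4 under the processing alternatives. Just short of that call, Gbp3 had a log2 ratio of -0.99 and Gbp7 of -0.93. All 10 members had a lower level with R848 than with CpG in mature DC. In Cd4-positive cells, where no member passed 2-fold, the R848 to CpG ratios of Gbp2, Gbp3, Gbp4 and Irgm1 were 1.20 (1.12 to 1.29), 1.20 (1.07 to 1.35), 1.66 (1.41 to 1.97) and 1.23 (1.08 to 1.39), and that of Gbp7, 1.06 (0.959 to 1.17), has an interval that includes 1. The agonists were given at different doses, 125 µg of CpG and 10 µg of R848, so agonist and dose cannot be told apart.

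Within a library, levels can be compared between types without crossing libraries. In the R848 library 3 of 8 measured members (Gbp2, Gbp4 and Gbp5) were higher in mature DC than in resting cDC2 and Gbp7 was lower, where 11.8% of genes were higher and 27% lower. In CpG the same 3 of 8 were higher and none was lower, against 11.8% and 20.8% of genes. In Control, of 3 measured, Gbp2 was higher and Gbp7 lower, against 8.22% and 10.3%. These shares of genes are large, so mature and resting cells differed in many of the genes measured. The Gbp5 ratio of mature DC to cDC2 was 7.29 (4.50 to 12.0) in Control, 9.87 (7.81 to 12.6) with CpG and 11.2 (7.96 to 16.4) with R848. That of Gbp7 was 0.313 (0.182 to 0.504), 0.527 (0.455 to 0.613) and 0.296 (0.238 to 0.369). Irgm1 had ratios of 0.683 (0.384 to 1.14), 0.952 (0.837 to 1.09) and 0.816 (0.686 to 0.975).

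Against lysozyme-high Cd4-negative cells, mature DC had higher Gbp2, Gbp4 and Gbp5 and lower Gbp7 with CpG (3 higher and 1 lower of 8, against 17.5% and 21.5% of genes). With R848 Gbp2 and Gbp5 were higher and Gbp7 lower (2 and 1 of 8, against 15.2% and 25.6%). In Control, Gbp3 and Gbp7 were lower (2 of 4, against 15.9%) and none was higher, where 11.9% of genes were. The Gbp7 ratio was 0.102 (0.0604 to 0.162) in Control, 0.269 (0.243 to 0.297) with CpG and 0.139 (0.119 to 0.161) with R848.

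**Figure D4:**
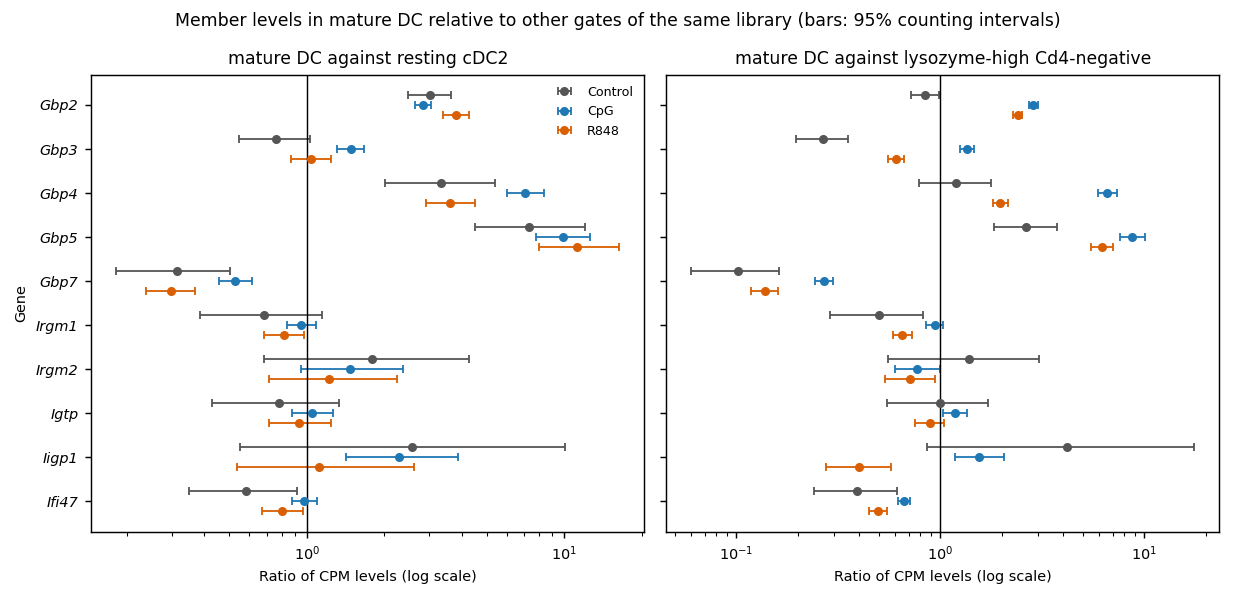
Ratios of member levels in mature DC to resting cDC2 (left) and to lysozyme-high Cd4-negative cells (right) of the same library, log scale, with 95% counting intervals. Gbp5 lies to the right of 1 and Gbp7 to the left of 1 in all 3 libraries and both panels, while Irgm1 and Igtp lie between 0.683 and 1.05 against cDC2.

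Cd4-positive and Cd4-negative lysozyme-high cells differed less. No measured member differed 2-fold between them in any library, where 1.96% and 1.54% of genes were higher and lower in Control, 1.61% and 1.3% with CpG, and 1.17% and 1.11% with R848. Under the 20 CPM minimum, Iigp1 was higher in Cd4-positive cells, with a ratio of 3.07 (2.24 to 4.21) for CpG and 2.45 (1.91 to 3.13) for R848. Gbp2 had a ratio of 1.84 (1.74 to 1.95) with R848.

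Mature DC are a mixture, and the part that could be assigned differed between libraries. Of 456, 2867 and 2300 Control, CpG and R848 mature DC, 29, 55 and 181 carried Xcr1 without Sirpa (the cDC1 side). Another 110, 367 and 276 carried Sirpa without Xcr1 (the cDC2 side). The rest, most of the mature DC in each library, were on neither side. Over all mature DC the mature panel summed to 9806, 18984 and 17165 CPM, and its part in the member levels was not tested. On the Xcr1 and Sirpa sides the cDC1 panel summed to 525 and 83.9 CPM with CpG and to 548 and 76.2 CPM with R848. The cDC2 panel summed to 166 and 413 CPM with CpG and to 13.1 and 236 CPM with R848. Irf8, at 2017 CPM in Control resting cDC1, stood at 185 and 386 CPM with CpG and at 754 and 413 CPM with R848. The part of these marker differences in the results by side was not tested. With CpG, Gbp3 and Gbp7 were lower on the Xcr1 side (2 of 8 measured, against 7.9% of genes), and with R848 Gbp2, Gbp3, Gbp7 and Ifi47 were (4 of 7, against 8.49%). None was higher, where 5.06% and 3.26% of genes were. Gbp7 stood at 8.40 against 60.2 CPM with CpG and at 2.61 against 21.9 CPM with R848, on 4 Xcr1-side UMIs each. For Gbp3 the CpG levels were 52.5 and 135 CPM and the R848 levels 16.3 and 72.0 CPM. Gbp5 showed no such order, with ratios of the Xcr1 to the Sirpa side of 1.19 (0.920 to 1.52) with CpG and 1.01 (0.812 to 1.25) with R848.

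On the Sirpa side alone, 3 of 8 measured members (Gbp4, Gbp7 and Ifi47) were lower with R848 than with CpG, against 4.23% of genes. On the Xcr1 side 5 of 7 were (Gbp2, Gbp3, Irgm1, Igtp and Ifi47), against 8.13%. None was higher on either side, where 2.18% and 2.81% of genes were. On the Sirpa side Gbp4 stood at 12.4 CPM in Control, 227 with CpG and 76.2 with R848, an R848 to CpG ratio of 0.336 (0.278 to 0.403). Ifi47 stood at 10.9, 93.8 and 37.0 CPM, a ratio of 0.395 (0.299 to 0.516), and the Gbp7 ratio was 0.364 (0.252 to 0.514). On the Xcr1 side the Gbp4 ratio was 0.684 (0.528 to 0.894), from 181 and 124 CPM and short of 2-fold, and that of Ifi47 0.208 (0.112 to 0.378), from 63.0 and 13.1 CPM.

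Resting cDC1 of the Control library repeated the low Gbp3 and Gbp7 of the Xcr1 side. Gbp3 stood at 4.90 CPM against 25.3 in cDC2, a ratio of 0.194 (0.109 to 0.320), and Gbp7 at 4.28 against 22.5 CPM, a ratio of 0.190 (0.103 to 0.325). Gbp2 stood at 8.57 against 22.8 CPM, a ratio of 0.376 (0.245 to 0.557). No IRG reached 20 CPM in either type, and their ratios ran both ways. Igtp stood at 15.6 against 7.99 CPM, a ratio of 1.95 (1.36 to 2.78), and Iigp1 at 4.59 against 0.608 CPM, a ratio of 7.55 (2.90 to 21.9). Ifi47 stood at 8.87 against 14.2 CPM, a ratio of 0.627 (0.407 to 0.934). The GBP sum of Control cDC1, 20.5 CPM, was the lowest of the types measured in Control, and its IRG sum, 46.2 CPM, was above that of cDC2. A further 136 R848 cells were both lysozyme-high and mature. There Gbp5 stood at 53.7 CPM and Gbp7 at 38.9 CPM, against 18.5 and 100.7 CPM in R848 lysozyme-high Cd4-negative cells, values between those of that type and of R848 mature DC. Other members were not in between: Igtp, at 8.05 CPM on 12 UMIs, was below both (21.8 and 19.4 CPM), and Gbp3, at 109 CPM, was above both (81.6 and 49.4 CPM). The 7 B cell markers summed to 348 CPM in these 136 cells. They summed to 164 CPM in R848 Cd4-negative cells and 40.0 CPM in R848 mature DC. The part of this difference in the member levels was not tested.

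The same differences were read cell by cell, after thinning each cell to 3000 UMIs so that depth does not set the share. From 1 to 211 cells per type and library were shallower and were left out. Cells with UMIs of 3 or more members made up 3.53% (2.65 to 4.59) of Control lysozyme-high Cd4-negative cells, 21.5% (18.8 to 24.4) with CpG and 17.3% (15.2 to 19.5) with R848. In Cd4-positive cells these shares were 6.15%, 28.5% and 34.3%, in cDC2 0.594%, 15.8% and 8.85%, and in mature DC 2.25% (1.03 to 4.23), 37.7% (35.8 to 39.5) and 18.4% (16.7 to 20.1). Without thinning, the shares were 30.5%, 78.8% and 76.8% in Cd4-negative cells, 42.9%, 89.1% and 91.2% in Cd4-positive cells, 3.53%, 46.2% and 26.5% in cDC2, and 3.73%, 62.6% and 38.7% in mature DC, where cells are shallower. The order of the libraries within each type was the same at both depths.

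At 3000 UMIs, 89.6% of CpG mature DC held a UMI of at least 1 member, against 27.3% in Control and 79.8% with R848. Most showed no IRG UMI at that depth: 55.8% held a GBP but no IRG, 31.4% both and 2.48% an IRG but no GBP. In CpG lysozyme-high Cd4-negative cells 33.8% held a GBP without an IRG, 32.7% both and 13.1% an IRG without a GBP. This split depends on depth. Without thinning, in the same order, the shares were 46.8%, 46.9% and 1.43% in CpG mature DC. In CpG Cd4-negative cells they were 14.0%, 81.7% and 2.38%. At 3000 UMIs, Gbp2 alone was seen in 63.7% (61.8 to 65.5) of CpG mature DC and 15.8% (12.3 to 19.7) of those of Control. Free RNA, estimated from complement genes in mature DC at 4.47%, 2.52% and 3.91% of UMIs in Control, CpG and R848, would give Gbp2 in 0.772%, 2.53% and 2.75% of cells at that depth. Gbp7 was seen in 1.25% (0.407 to 2.89) of Control mature DC, which is not distinguishable from the 0.639% that free RNA would give. With CpG and R848 it was seen in 8.33% and 4.26%, above the free-RNA shares of 0.549% and 0.848%.

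**Figure D5:**
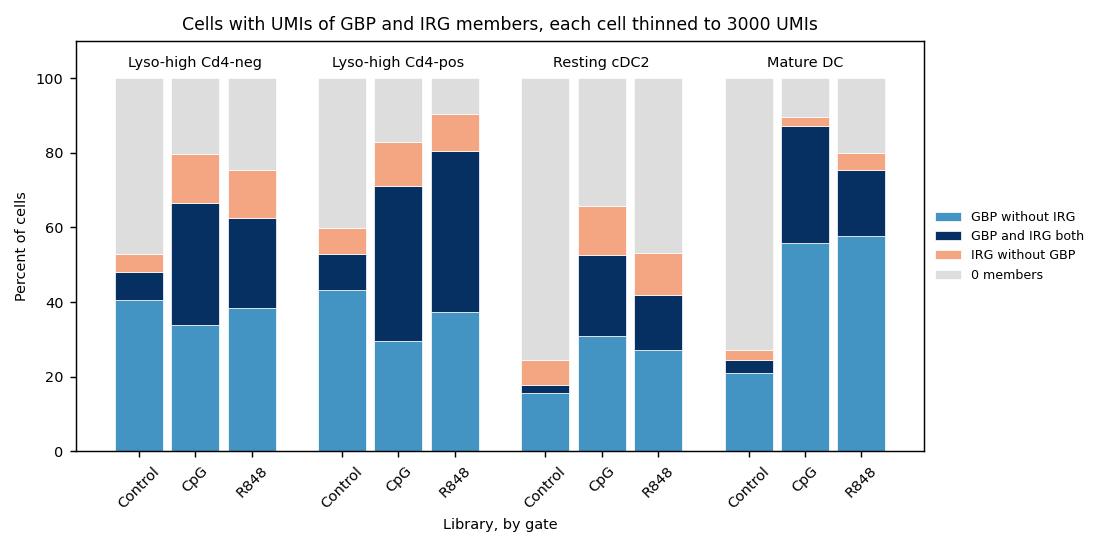
Percent of cells with UMIs of GBP members only, of both families, of IRG members only, or of neither, each cell thinned to 3000 UMIs, by type and library. In treated mature DC the class with a GBP and no IRG is the largest at this depth, at 55.8% with CpG and 57.6% with R848.

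Over 14 sums of a type in a library, the likeness of member levels was described by correlation. The correlations are descriptions over sums that share libraries, with no test. On log2(CPM + 5), Pearson's r was 0.93 between Gbp5 and Gbp4, which lie on different chromosomes, and 0.05 between the neighbours Gbp5 and Gbp7, the lowest of all member pairs. Other pairs of the chromosome 3 cluster ran closer, such as Gbp2 with Gbp5 (0.88) and with Gbp3 (0.84). Gbp7 was closest to Gbp3 (0.81), Irgm1 to Ifi47 (0.94) and Igtp to Irgm2 (0.88), whose exons overlap. Among 6493 other genes, the 6 closest to the mean pattern of the members were Parp9 (0.97), Ifit1 (0.97), Parp10 (0.97), Ppp1r15b (0.96), Zbp1 (0.96) and Oasl2 (0.96).

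Other genes of the interferon pathway were counted by the same rule, by which 2.02% to 9.06% of all genes were higher and 0.585% to 6.97% lower than in Control. All 14 type I interferon reference genes, such as Isg15 and Oasl2, were measured and higher with either agonist in both lysozyme-high types, with medians of 2.52 to 2.76 on the log2 scale. In cDC2 10 of 10 measured were higher with R848 and 11 of 11 with CpG, and in mature DC 9 of 10 with either. Of 20 interferon signalling genes, 16 to 19 were measured, and 4 or 5 were higher and 0 to 3 lower in each comparison. Irf7, which amplifies type I interferon, went from 66.3 to 781 (CpG) and 1016 CPM (R848) in Cd4-negative cells and from 18.0 to 458 and 643 CPM in mature DC.

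Ifngr1, the ligand-binding chain of the interferon-gamma receptor, stood lower in treated mature DC, at 42.2 CPM with CpG and 45.8 with R848 against 371 in Control. It was also lower with R848 in lysozyme-high cells, at 257 against 525 CPM in Cd4-negative and 158 against 458 CPM in Cd4-positive cells. Ciita, the class II transactivator and a target of interferon-gamma, stood in mature DC at 20.6 (CpG) and 31.5 CPM (R848), with ratios to Control of 0.268 and 0.409. Of the 10 interferon genes searched, the kept cells held 3 UMIs in all in Control, 7 with CpG and 1 with R848, so their sources were not detectable in these cells at this depth. In the main types these were 4 Ifna2 UMIs in CpG lysozyme-high Cd4-negative cells, and 1 Ifng and 1 Ifnb1 UMI in Control mature DC.

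GBPs and IRGs are steered to vacuoles by the ATG8 conjugation machinery. None of its 6 to 9 measured genes, of 14, was higher or lower than in Control in any main type. Of the inflammasome and pyroptosis genes, Zbp1, a sensor of Z-form nucleic acid, was higher throughout, going from 67.3 to 343 and 278 CPM in Cd4-negative cells and from 16.0 to 212 and 188 CPM in mature DC. Casp4, which encodes the caspase that reads bacterial lipopolysaccharide freed by GBPs, was higher in mature DC with CpG, at 88.6 CPM against 35.6, and stood at 44.4 CPM with R848. Mx1, a GTPase of the related dynamin family, was higher in both lysozyme-high types and in mature DC with either agonist, at 38.2 and 50.1 CPM in Cd4-negative cells, which is 7.64 times the Control level with CpG.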

How the data were processed

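Droplet 3′ single-cell RNA libraries of Control, CpG and R848 mice were used, 1 per group. The authors aligned reads to mm10 and counted UMIs with Cell Ranger 2.0.0, per the submitters' processing notes, and what was deposited is the unnormalised UMI count of each gene in each barcode. The other deposited files hold barcodes and gene names. No source used here names the annotation release. The libraries held 43537067, 43767864 and 46556726 UMIs over 5344, 5049 and 5133 barcodes.

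Cells with at least 500 genes and at most 10% mitochondrial UMIs were kept, and 225, 202 and 209 simulated-doublet matches were removed, at a rate set from the number of cells, leaving 5079, 4821 and 4898. A cell's type was read from marker panels per 10000 UMIs: lysozyme-high at 300 or more, mature at 30 or more, cDC1 at 15 or more, and resting cDC2 from the rest with a cDC2 marker UMI. B-lineage, plasmacytoid, T and NK, neutrophil, epithelial and stromal cells were left out. Limits were set after the panels were seen. UMIs were summed per type, library and gene and scaled to CPM. The 95% intervals are exact: Poisson for levels, binomial conditional on both counts for ratios, and Clopper-Pearson for shares. Where 0 UMIs were found, the floor is 3 counts per library. PCR copies are removed by UMIs, but intervals still cover counting error only. Named genes were the 10 members, from each gene list the 2 highest and the 1 lowest log2 ratio of each treatment against Control in lysozyme-high Cd4-negative cells and cDC2, among genes at 20 CPM or more, and the 6 genes closest to the member pattern. The members and lists were chosen with earlier results of these data known. The matrices lacked 7 of 99 list genes and 1 of 86 markers. As alternatives, results were recomputed with 1 or 20 CPM added, no minimum or 100 CPM, median-of-ratios scaling, free-RNA subtraction, no doublet removal, stricter gates, clusters in place of gates, equal weight per cell, no cycling cells and other thinning depths. The ratio and interval code was tested on simulated data. Python 3.11.15, NumPy 2.4.6, SciPy 1.17.1 and scanpy 1.11.5 were used. Gene positions came from the GRCm38 annotation and promoter sequences from RefSeq.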

Additional observations from a re-analysis of the deposited data

How the results depend on the processing

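No paired analysis was possible because each group is 1 library. Of 16 counts of members at least 2-fold higher or lower between libraries, 11 alternatives left 159 values within 1.5 times of the main count and moved 16. With a minimum of 100 CPM, fewer members are measured: 2 were then higher with CpG in lysozyme-high Cd4-negative cells and 0 with R848, 2 with either agonist in Cd4-positive cells, 1 with CpG in cDC2, and 4 with CpG and 3 with R848 in mature DC, where 1 was lower with R848 than CpG. In cDC2 with R848 no member reached that minimum. With a pseudocount of 20 CPM, 2 were higher with CpG in Cd4-negative cells and 4 in cDC2, and 1 was lower with R848 than CpG in mature DC. That last count, 2 as reported, was 4 with a pseudocount of 1 CPM, with free RNA subtracted and with clusters in place of gates, and 1 with median-of-ratios scaling. With clusters, 1 member was higher with R848 than CpG in Cd4-positive cells, where the reported count is 0. The cause of these moves was not tested beyond what each alternative changes. No log2 ratio past 2-fold changed sign in any alternative. Among values of single members and shares of cells under the alternatives, 1211 stayed within counting error and 139 moved. Depth limits Irgm2 and Iigp1 most, since both stayed under 20 CPM, and Gbp7 in mature DC. With 1 library per group, variation between mice and between preparations cannot be told apart from treatment.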
